A study of Mus musculus with 32 samples.

Results

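The genes described here are the metalloproteases that cut the extracellular matrix and the inhibitors that hold them in check. They were taken by name: every symbol that starts with Adamts, Adamtsl or Mmp followed by a digit, together with Timp1 to Timp4. Of the 55806 gene identifiers found in the 4 count tables, 51 met this rule, and all 51 were present in each table: 19 ADAMTS genes, 5 ADAMTS-like genes, 23 MMP genes and 4 TIMP genes. They were followed through 32 RNA-seq libraries of embryonic mouse kidney, made to ask how Wilms tumour mutations of ENL alter the nephron and stromal lineages. ENL, encoded by Mllt1, is a reader of acetylated histones that recruits the transcription elongation machinery. The mutant alleles T1 (an insertion) and T3 (a deletion) change its YEATS domain and are switched on by Cre.

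The mutant Enl alleles were made in C57BL/6J mice, both Cre alleles had been backcrossed to that strain, and mutants carried 1 mutant and 1 normal Enl allele. In whole E18.5 kidneys with the Six2-TGC transgene, 2 libraries each were WT, T1 and T3. Sorted tdT+ cells of the Six2 lineage gave 3 WT and 3 T1 libraries at E14.5 and the same numbers at E18.5. Sorted tdT+ cells of the Foxd1 lineage at E18.5 gave 4 WT and 4 T1 libraries, and whole kidneys with the Foxd1GC allele gave 3 WT and 3 T1 libraries at that age. The WT controls carried the same Cre allele as their mutants. Six2-TGC is a bacterial artificial chromosome transgene that puts a GFP-tagged Cre under the Six2 promoter, which acts in nephron progenitors. Per the paper, this strain has been reported to express Six3 aberrantly in those cells. Every Six2 group, WT included, carried the transgene. Foxd1GC is a knock-in that inactivates its copy of Foxd1, so every Foxd1 group was also heterozygous for Foxd1. The sorted cells also carried a Cre-activated tdTomato reporter and include the descendants of the cells in which Cre acted. Nothing in the labels says that libraries came from separate animals, so p-values measure the spread between these samples only.

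MMPs are zinc proteases made as inactive precursors, either secreted or tethered to the cell surface, and between them they cut collagens, gelatin, elastin and basement membrane proteins. MMP14, at the membrane, activates pro-MMP2, and MMP2 and MMP14 are known for their part in branching of the developing kidney. ADAMTS proteases are secreted and bind matrix through thrombospondin repeats. One branch cuts proteoglycans such as versican and aggrecan, another removes the N-propeptide of fibrillar procollagens, and others have single known substrates, such as von Willebrand factor for ADAMTS13. ADAMTS-like proteins share the binding repeats but lack the protease domain. TIMPs block the active site of MMPs, and TIMP3, which is held in the matrix, also blocks ADAMTS4 and ADAMTS5.

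Libraries held 106005614 to 157266455 counts in whole Six2 kidneys, 76510702 to 137888792 in sorted Six2 cells, 67137194 to 79343015 in whole Foxd1 kidneys and only 2557443 to 3508381 in sorted Foxd1 cells, which limits what can be seen of weakly expressed genes there. Mllt1 itself was read first. Its mean was 96.9 ± 10.7 CPM (counts scaled to library size; SD, n = 2) in WT, 81.0 ± 1.81 in T1 and 77.1 ± 0.818 in T3 whole Six2 kidneys, and in no comparison of genotypes did it pass 1.5-fold. The counts do not separate the alleles, so this level does not verify the genotype. Stromal markers summed to 3203 to 3333 CPM in sorted Foxd1 WT cells against 718 to 757 CPM in sorted Six2 WT cells at E18.5, and nephron progenitor markers to 1655 to 1946 CPM in sorted Six2 WT cells at E14.5. In whole Six2 kidneys both T1 libraries carried Y-linked transcripts and both T3 libraries carried Xist, while WT had 1 of each, so sex and mutant allele cannot be told apart in T3 against T1. Skeletal muscle markers summed to 45.2 CPM in WT replicate 2 of the whole Six2 kidneys, against at most 2.86 in the other 5 libraries, and to 93.7 CPM in T1 replicate 1 of the whole Foxd1 kidneys, against at most 19.0. All Foxd1 whole libraries carried Xist and all Foxd1 sorted libraries the Y-linked Ddx3y. In sorted Six2 cells at E18.5, replicate 1 of WT and T1 carried Ddx3y. At E14.5 it was carried by WT replicate 1 and T1 replicates 1 and 2. The other sorted Six2 libraries carried Xist, so sex was not balanced between genotypes at E14.5 or between lineages.

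Part of the MMP family sits in a cluster, and the data bear on it. On chromosome 9, 10 of the 23 MMP genes lie side by side between bases 7272514 and 7699585 (GRCm38), and of these Mmp8, Mmp10, Mmp12 and Mmp13 passed the filter on low counts in at least 1 comparison. Promoters were read from the RefSeq table (GRCm38.p6), which matched 36 of the 51 members. The letters TGAGTCA, the consensus of AP-1 (the Fos and Jun family), or their reverse complement TGACTCA occurred within 250 bases upstream of a start in 7 of the 10 clustered genes. No other matched member held them, and 4.46% of all 32851 promoters did. TATAAA occurred in 7 of the 10 (12.4% of all promoters) and GGGCGG, the GC box, in 0 of the 10 (32.7% of all promoters), both strands searched. The last 120 bases before the RefSeq start are shown for the 3 clustered genes that differed in these data and, for comparison, for a near-silent neighbour with the same letters, on the plus strand, with AP-1 letters and TATAAA in capitals.
Mmp13, chr9:7272394-7272513: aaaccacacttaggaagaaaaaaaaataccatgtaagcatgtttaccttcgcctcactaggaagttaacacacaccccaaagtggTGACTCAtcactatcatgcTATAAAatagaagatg
Mmp10, chr9:7502222-7502341: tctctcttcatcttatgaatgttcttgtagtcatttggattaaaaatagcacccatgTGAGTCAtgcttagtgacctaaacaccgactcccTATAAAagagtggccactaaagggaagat
Mmp12, chr9:7347254-7347373: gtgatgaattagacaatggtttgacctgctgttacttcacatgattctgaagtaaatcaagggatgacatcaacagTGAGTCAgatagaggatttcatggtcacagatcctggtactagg
Mmp1a, chr9:7464021-7464140: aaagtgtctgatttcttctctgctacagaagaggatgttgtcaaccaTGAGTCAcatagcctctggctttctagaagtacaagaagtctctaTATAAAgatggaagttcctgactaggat
The AP-1 letters begin 35 bases before the start in Mmp13, 63 in Mmp10, 44 in Mmp12 and 73 in Mmp1a. Mmp12 has a second RefSeq start upstream, and its last 120 bases, chr9:7344277-7344396, do not hold these letters. A match describes the window and is no proof of a site.

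The family was expressed over a wide range, and few genes carried most of it. Per kilobase of exon, WT sorted Six2 cells at E18.5 were led by Adamts1 at 206 ± 30.9 CPM per kb (SD, n = 3), 41.7% of the summed level of all members, followed by Timp2 at 75.8 ± 3.31, Timp3 at 43.6 ± 2.86 and Mmp14 at 35.0 ± 1.25. At E14.5 the same lineage was led by Timp2 at 92.4 ± 2.97 CPM per kb, ahead of Mmp14 at 52.6 ± 1.2 and Adamts1 at 45.8 ± 6.16. Sorted Foxd1 WT cells were led by Mmp2 at 129.7 ± 7.16 CPM per kb (n = 4), above Mmp14 at 62.4 ± 3.60 and Timp3 at 60.7 ± 2.1, which did not differ beyond their spread. Timp1 reached 35.6 ± 4.42 CPM per kb there. In whole WT kidneys Adamts1, Timp2 and Timp3 were close together in the Six2 set (52.7 ± 6.73, 50.1 ± 2.21 and 47.2 ± 0.293 CPM per kb, n = 2), and Timp2 and Adamts1 led the Foxd1 set at 60.7 ± 2.35 and 54.2 ± 2.81 (n = 3). Lineages were sequenced in different runs, so lineage and run cannot be told apart in these levels.

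**Figure D1:**
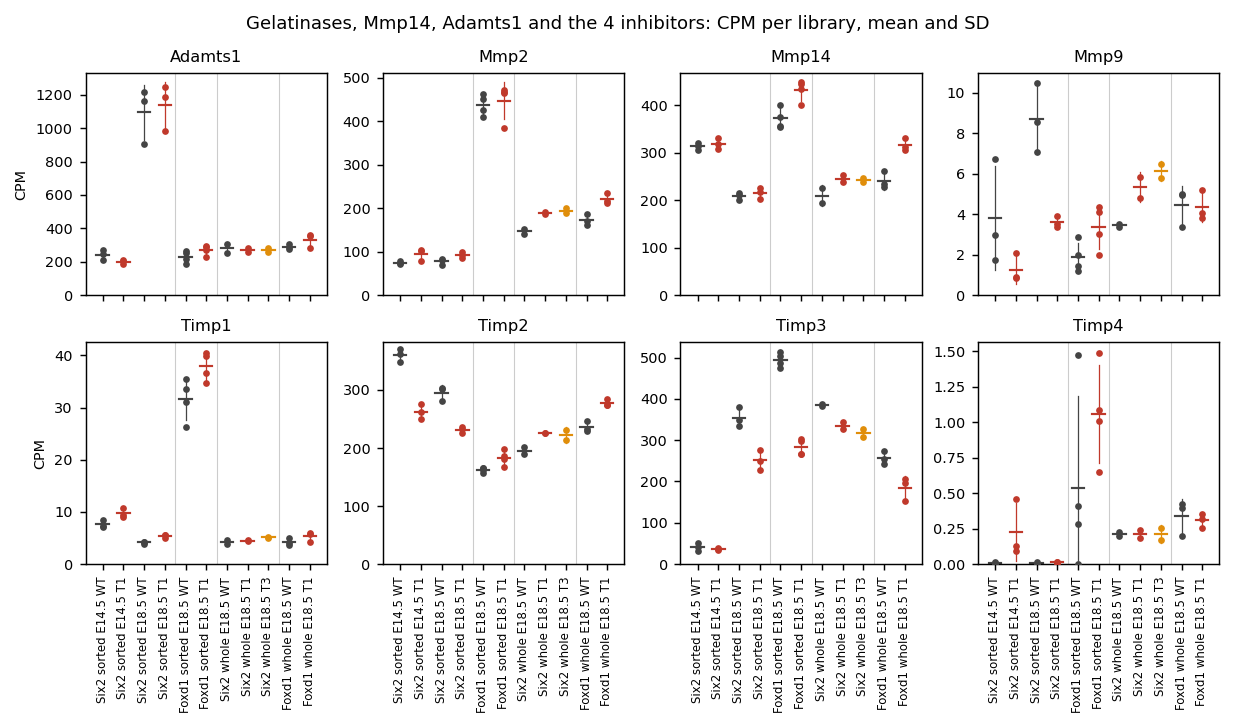
CPM per library (y axis, linear, from 0) of 8 members in the 11 groups (x axis). Points are libraries, horizontal bars means and vertical bars SD, with lower ends held at 0; grey is WT, red T1 and orange T3. Adamts1 stands at 908 to 1247 CPM in sorted Six2 cells at E18.5 and at or under 359.9 CPM elsewhere, and Timp3 is lower in every T1 than in every WT library of sorted Foxd1 cells.

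At the other end, 5 to 7 members had at most 3 counts in every library of a group (11 to 13 in the shallow sorted Foxd1 libraries). Mmp1a, Mmp1b, Mmp3, Mmp7, Mmp20 and Mmp27 passed the filter in none of the comparisons between genotypes. A level of 1 CPM was reached by 29 to 38 members per group and 100 CPM by 3 to 6.

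The main question was which members differ between mutant and WT. Of the 51, 31 passed adjusted p under 0.05 with a fold over 1.5 in at least 1 of the 6 comparisons with WT: 21 rose only, 6 fell only, and Adamts5, Adamts19, Mmp9 and Mmp13 rose in some and fell in others. Sorted Six2 cells at E18.5 held the most, with 14 of 41 tested members up and 4 down, where 6.14% of all tested genes were up and 5.54% down, 11.7% together. At E14.5 the count was 9 up and 1 down of 41 (4.11% and 2.28% of all genes, 6.4% together). Whole Six2 kidneys had 8 up and 2 down of 42 with T1 (2.88% and 4.88%, 7.77% together) and 9 up and 2 down of 42 with T3 (4.34% and 5.28%, 9.62% together), against the same 2 WT libraries. Sorted Foxd1 cells had 5 up and 3 down of 31 (3.63% and 2.18%, 5.81% together), and whole Foxd1 kidneys 1 up and 3 down of 40 (2.65% and 7.53%, 10.2% together), a share near the background. The median log2 fold change over the tested members was 0.26 in sorted Six2 cells at E18.5 (0.02 over all genes), 0.11 at E14.5 (0.00), 0.14 with T1 and 0.26 with T3 in whole Six2 kidneys (−0.01 and −0.00), 0.17 in sorted Foxd1 cells (−0.00) and 0.08 in whole Foxd1 kidneys (−0.00). WT and mutant libraries did not overlap for 66.7% of tested members with T1 and 78.6% with T3 in whole Six2 kidneys (55% and 56.1% of all genes), for 51.2% and 75.6% in sorted Six2 cells at E14.5 and E18.5 (31.8% and 34.9%), for 32.3% in sorted Foxd1 cells (15.6%) and for 55% in whole Foxd1 kidneys (46.5%). Scaling by library size alone moved the median of all genes in sorted Six2 cells at E18.5 to 0.11 and gave 19 members up and 3 down. In whole tissue, and in sorted cells of mixed type, fewer cells of a type and less RNA per cell cannot be told apart.

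**Figure D2:**
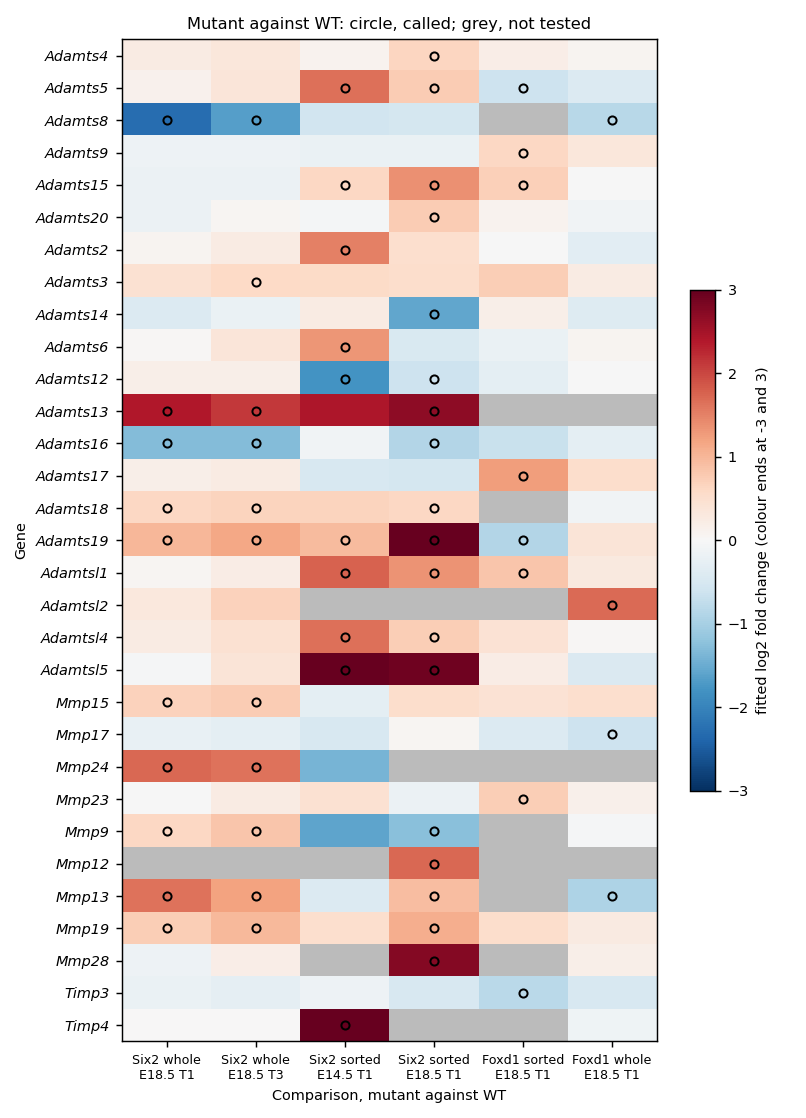
Fitted log2 fold change, mutant against WT (colour, red higher and blue lower, ending at -3 and 3), for the 31 members (y axis) that passed the thresholds in at least 1 of the 6 comparisons (x axis). Circles mark calls and grey cells were not tested; Adamtsl1, Adamtsl4 and Adamtsl5 are called in sorted Six2 cells at both stages, and Adamts19 reaches 3.21 there at E18.5.

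No inhibitor was called in whole kidneys, and Timp3 fell in sorted Foxd1 cells. Timp3 (chromosome 10) was at 513, 487, 503 and 474 CPM in WT and at 267, 298, 266 and 303 CPM in T1 sorted Foxd1 libraries, a log2 fold change of −0.80 (SE 0.07, adjusted p = 2.53e-07). No T1 library reached the lowest WT library. In sorted Six2 cells at E18.5 it stood at 349, 380.3 and 335 CPM in WT and 229, 250.4 and 276 in T1, a difference of −0.49 (adjusted p = 0.000514) that passed the p threshold but not 1.5-fold. Whole Foxd1 kidneys had 242, 274 and 254 CPM in WT and 153, 206 and 196 in T1 (−0.47, adjusted p = 0.00145), also without overlap. The T1 effect differed between the lineages by −0.33 (adjusted p = 0.0356), a call that was lost when any of 4 libraries was left out (adjusted p = 0.0507 to 0.131) or no low-count filter was set (0.0533). Pericyte and smooth muscle markers moved alongside in the sorted Foxd1 cells, with 0 of 6 up and 2 down and a sum of 1517 to 1939 CPM in WT against 1055 to 1322 in T1, as did stromal markers (1 of 8 up, 4 down, 3203 to 3333 against 2188 to 2358 CPM). No marker of either list was at 0, and their part in the fall of Timp3 was not tested. Timp3 shares 21.3% of its exon length with Syn3, and reads were counted without strand, so the 2 cannot be told apart in that stretch.

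Timp2, which also takes part in the activation of pro-MMP2, was lower in T1 than WT cells of the Six2 lineage at both stages. It was at 347, 370.3 and 362 CPM in WT and 275, 263 and 249 in T1 at E14.5 (−0.44, SE 0.05, adjusted p = 0.000898), and at 280.5, 302 and 304 against 236, 226 and 233 at E18.5 (−0.35, SE 0.06, adjusted p = 0.00102). Neither passed 1.5-fold. In sorted Foxd1 cells the levels were 165, 162, 166 and 156 CPM in WT and 186, 198, 168 and 182 in T1 (0.17, adjusted p = 0.14), and the lineages differed in the T1 effect by 0.50 (SE 0.09, adjusted p = 0.000601). Whole kidneys had means of 195 ± 8.6 CPM in WT, 226 ± 0.114 in T1 and 222 ± 13.4 in T3 for the Six2 set, and 236 ± 9.17 in WT and 277 ± 5.82 in T1 for the Foxd1 set.

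Timp1, an X-linked inhibitor (chrX:20870166-20874735, GRCm38) that is induced in injury and inflammation, was at 31.6 ± 3.93 CPM in WT and 37.9 ± 2.73 in T1 sorted Foxd1 cells and at 3.64 to 10.7 CPM in the libraries of every other group. None of the 6 comparisons called it, with fitted changes of 0.07 to 0.38. Timp4 was at most 1.49 CPM in any library. It rose in sorted Six2 cells at E14.5 from 0, 2 and 1 counts in WT to 65, 11 and 18 in T1, a ratio of 31.0 (95% interval 10.3 to 153, counting error only) with a fitted log2 change of 4.78 (SE 1.03, adjusted p = 0.0186). Timp4 passed the low-count filter there only through the T1 libraries, so a rise was the only possible call. The fit gave 5.58 without WT replicate 2 and 3.73 without T1 replicate 1, and the call was lost when any WT library or T1 replicate 1 was left out (adjusted p = 0.054 to 0.0789).

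The gelatinases and their activator were unlike each other. Mmp2 (gelatinase A) and Mmp14 were abundant and rose past 1.5-fold in none of the 6 comparisons. Mmp2 stood at 142 and 152 CPM in WT, 187 and 192 in T1 and 188 and 199.6 in T3 whole Six2 kidneys, where the mutants did not overlap WT (0.37 with T1, adjusted p = 0.0075; 0.40 with T3, adjusted p = 0.00433). Whole Foxd1 kidneys gave a like difference, 162, 186 and 171 CPM in WT and 236, 211 and 217 in T1 (0.35, adjusted p = 0.000814). Within the sorted Foxd1 cells, where Mmp2 was highest, the means were 437 ± 24.1 and 447 ± 42.4 CPM (0.03, adjusted p = 0.837). In sorted Six2 cells Mmp2 was at 74.1 ± 3.61 and 93.5 ± 13.9 CPM at E14.5 and at 77.8 ± 6.95 and 92.8 ± 6.5 at E18.5, in WT and T1. Mmp14 was at 227, 260.5 and 233 CPM in WT and 331, 304 and 313 in T1 whole Foxd1 kidneys (0.40, SE 0.06, adjusted p = 0.00029). Its means in the other sets, WT first, were 209 ± 22.7, 245 ± 10.8 with T1 and 243 ± 5.56 with T3 in whole Six2 kidneys, 314 ± 7.17 and 319 ± 11.4 in Six2 cells at E14.5, then 209 ± 7.45 and 215 ± 12.2 at E18.5, and 372 ± 21.5 and 431 ± 22.2 in sorted Foxd1 cells.

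Mmp9 (gelatinase B) rose in whole Six2 kidneys and fell in sorted Six2 cells. Whole kidneys had 3.36 and 3.53 CPM in WT, 4.80 and 5.85 in T1 (0.63, adjusted p = 0.0202) and 6.46 and 5.78 in T3 (0.83, adjusted p = 0.00535). Sorted Six2 cells at E18.5 went the other way, from 7.05, 10.5 and 8.55 CPM in WT to 3.89, 3.37 and 3.53 in T1 (−1.26, SE 0.16, adjusted p = 6.83e-05). The groups did not overlap in any of these 3 comparisons, and the sorted E18.5 call was lost in a fit on all 12 sorted Six2 libraries (−1.27, adjusted p = 0.0523). At E14.5 the WT libraries were spread from 1.76 to 6.71 CPM, T1 lay at 0.889, 0.827 and 2.07, and the difference of −1.58 did not pass (adjusted p = 0.0916). It passed with the edgeR exact test (adjusted p = 0.0299), with no low-count filter (0.0328) and in the fit on all 12 libraries (0.0246). The difference became −0.88 without WT replicate 1, the library in which neutrophil markers summed to 18.3 CPM, against at most 2.95 in the other 5. In whole Foxd1 kidneys Mmp9 was at 4.43 ± 0.93 CPM in WT and 4.34 ± 0.747 in T1. Sorted Foxd1 cells had 7, 4, 7 and 4 counts in WT and 11, 9, 12 and 6 in T1, too few to be tested alone, and the interaction fit over both lineages gave a difference of 2.12 in the T1 effect (SE 0.42, adjusted p = 0.00101). The T1 call in whole Six2 kidneys was lost without WT replicate 1 (adjusted p = 0.0533) or T1 replicate 2 (0.165).

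Among the membrane-bound MMPs, Mmp15 and Mmp24 rose in whole Six2 kidneys, Mmp17 fell in whole Foxd1 kidneys and Mmp23 rose in sorted Foxd1 cells. Mmp15, a close relative of Mmp14, was at 37.8 and 47.2 CPM in WT, 70.5 and 67.8 in T1 (0.70, SE 0.10, adjusted p = 0.00299) and 72.7 and 70.7 in T3 (0.75, SE 0.10, adjusted p = 0.00184). All 4 mutant libraries lay above both WT libraries, though without WT replicate 1 the T1 change was 0.56 and under 1.5-fold. In sorted Six2 cells Mmp15 was at 23.3 ± 0.942 CPM in WT and 18.8 ± 0.628 in T1 at E14.5 and at 21.9 ± 1.78 and 31.4 ± 2.21 at E18.5, and this T1 effect differed between stages by 0.83 (SE 0.11, adjusted p = 0.000512). Mmp24, a mainly neuronal enzyme, was near the detection limit, with 9 and 8 counts in WT, 30 and 25 in T1 and 19 and 23 in T3 (1.72, adjusted p = 0.0411, and 1.64, adjusted p = 0.045). Both calls were lost whichever library was left out (adjusted p = 0.08 to 0.223 and 0.0781 to 0.181) with DESeq2 (0.0657 and 0.0802) and with their own groups alone (0.0645 and 0.0917). Mmp24 shares 13.6% of its exon length with BC029722.

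Mmp17, held at the membrane by a lipid anchor, was at 21.5, 26 and 21.1 CPM in WT and 15.3, 13.9 and 15.1 in T1 whole Foxd1 kidneys (−0.63, SE 0.09, adjusted p = 0.000121), and without WT replicate 2 the change was −0.53. Pericyte and smooth muscle markers fell in the same kidneys, 4 of 6, from a sum of 1342 to 1673 CPM to 715 to 756, with no marker at 0, and their part was not tested. Mmp23 was at 31.7, 35.4, 45.1 and 29.5 CPM in WT and 53.6, 63.4, 58.5 and 58 in T1 sorted Foxd1 cells (0.73, SE 0.12, adjusted p = 0.000318). The lowest T1 library was above the highest WT library. Its T1 effect was 0.90 higher in Foxd1 than in Six2 cells (adjusted p = 0.000129) and, within the Six2 lineage, lower at E18.5 than at E14.5 by a fitted −0.62 (adjusted p = 0.00535). Mmp16 and Mmp25, the others of this class, were called in none of the 6 comparisons with WT.

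Of the other secreted MMPs, Mmp13 and Mmp19 were called most often. Mmp13, collagenase 3, was at 0.607 and 0.665 CPM in WT, 1.69 and 2.26 in T1 (1.63, SE 0.22, adjusted p = 0.00262) and 1.61 and 1.34 in T3 (1.21, SE 0.22, adjusted p = 0.00902) whole Six2 kidneys. It also rose in sorted Six2 cells at E18.5, from 1.40, 2.61 and 2.84 CPM to 3.21, 5.00 and 4.80 (0.93, SE 0.26, adjusted p = 0.0202). In whole Foxd1 kidneys it fell, from 0.935, 0.574 and 0.576 CPM to 0.312, 0.332 and 0.442 (−0.94, SE 0.34, adjusted p = 0.0475). That fall was lost whichever of the 6 libraries was left out (adjusted p = 0.051 to 0.236), with DESeq2 (0.0511) and with library size alone as scaling (0.0504). Neutrophil markers fell beside it, 3 of 4 tested, from a sum of 5.92 to 7.65 CPM in WT to 2.80 to 3.80 in T1, with 0 to 2 of the 6 markers at 0 in a library, and their part was not tested. The E18.5 call in sorted Six2 cells was lost without T1 replicate 2 or 3 (0.0877 and 0.0813) and in the fit on all 12 sorted Six2 libraries (0.38), and the T3 call without T3 replicate 1 (0.06). The 4 counts or fewer of Mmp13 in each T1 library of sorted Foxd1 cells allow no statement there.

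Mmp19, an MMP of vessels, smooth muscle and myeloid cells, was at 2.1 and 2.25 CPM in WT, 3.81 and 3.47 in T1 (0.75, SE 0.14, adjusted p = 0.0123) and 4.64 and 3.95 in T3 (0.98, SE 0.14, adjusted p = 0.00311). In sorted Six2 cells at E18.5 it rose from 1.34, 1.01 and 0.781 CPM to 1.62, 2.86 and 2.14 (1.08, SE 0.28, adjusted p = 0.014). Mutant and WT libraries did not overlap in any of the 3 comparisons. The T1 calls were lost without T1 replicate 1 or 2 of the whole kidneys (0.102 and 0.0558) and without WT replicate 2 or 3 or T1 replicate 2 of the sorted cells (0.051, 0.0523 and 0.0858), the latter also in the fit on all 12 sorted Six2 libraries (0.057). Mmp19 shares 28.3% of its exon length with Gm47093 and Tmem198b.

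Mmp12, the macrophage elastase, and Mmp28, an epithelial MMP also known as epilysin, rose in sorted Six2 cells at E18.5 from very low levels. Mmp12 had 10, 13 and 9 counts in WT and 34, 35 and 44 in T1 (1.72, SE 0.47, adjusted p = 0.02), and the call was lost when any of 5 libraries was left out (adjusted p = 0.0517 to 0.108) and in the fit on all 12 sorted Six2 libraries (0.0874). Mmp28 had 3, 6 and 5 counts against 41, 21 and 42, a ratio of 6.87 (95% interval 3.91 to 13, counting error only) and a fitted change of 2.75 (SE 0.58, adjusted p = 0.00418). Mmp28 passed the low-count filter only through the T1 libraries, so a rise was the only possible call. Macrophage markers rose in the same cells, 6 of 8, from a sum of 38.4 to 41.4 CPM in WT to 95.8 to 112 in T1. They also rose in whole Six2 kidneys, 7 of 8 with T1 (147 to 150 CPM in WT, 212 to 224 in T1) and 6 of 8 with T3 (220 to 238), where Mmp9, Mmp13 and Mmp19 rose, and in sorted Foxd1 cells (6 of 8, 99.9 to 242 against 245 to 339 CPM). No macrophage marker was at 0 in any group. Macrophages lie outside both Cre lineages, so a sort for tdT+ cells would be meant to leave them out. The part of these cells in the MMP changes was not tested. Mmp8, the neutrophil collagenase, was tested but called in none of the 6.

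Among the ADAMTS genes that cut proteoglycans, Adamts15 rose in all 3 sorted comparisons. It went from 18.3, 17.1 and 18 CPM to 29.6, 25.5 and 26.7 in Six2 cells at E14.5 (0.63, SE 0.08, adjusted p = 0.0019), from 21.1, 16.4 and 17.2 to 46.8, 49.7 and 44 at E18.5 (1.37, SE 0.10, adjusted p = 6.83e-07), and from 16.5, 19.7, 15 and 12 to 23.8, 29.9, 25.4 and 26.1 in Foxd1 cells (0.72, SE 0.15, adjusted p = 0.0042). WT and T1 did not overlap in any of the 3. Whole kidneys did not show it, with 46.6 ± 1.12 CPM in WT, 41.1 ± 2.48 in T1 and 41.2 ± 2.77 in T3 for the Six2 set and 49.2 ± 3.05 and 48.4 ± 3.89 for the Foxd1 set. The effect was larger at E18.5 than at E14.5 by 0.75 (adjusted p = 0.00407) and smaller in Foxd1 than in Six2 cells by a fitted −0.67 (adjusted p = 0.0156), the latter lost without Foxd1 WT replicate 2 (0.055). Without T1 replicate 1 the E14.5 change was 0.56, under 1.5-fold.

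Adamts5, with Adamts4 a main aggrecanase, rose in the Six2 lineage and fell in the Foxd1 lineage. It was at 2.11, 2.40 and 2.23 CPM in WT and 8.17, 4.26 and 8.48 in T1 at E14.5 (1.65, SE 0.25, adjusted p = 0.00388), and at 52.6, 78 and 55.4 against 109.6, 85.3 and 117 at E18.5 (0.75, SE 0.14, adjusted p = 0.00159). Sorted Foxd1 cells had 37.6, 41.3, 57.7 and 42.3 CPM in WT and 33.5, 22.5, 29.1 and 29.7 in T1 (−0.63, SE 0.14, adjusted p = 0.00729). The lineages differed by −1.40 (SE 0.23, adjusted p = 0.000159). The fall in Foxd1 cells was under 1.5-fold without WT replicate 3 (−0.49) or T1 replicate 2 (−0.52). Whole Foxd1 kidneys had 40.7, 39.6 and 37.8 CPM in WT and 28.2, 30.2 and 29.9 in T1 (−0.42, adjusted p = 0.000129), and whole Six2 kidneys 43.8 ± 1.5 in WT, 48.1 ± 3.02 in T1 and 56.0 ± 2.47 in T3, none past 1.5-fold.

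Adamts1, the most abundant protease of the family in several groups, differed past the thresholds in none of the 6 genotype comparisons. In sorted Six2 cells at E18.5 it was at 1161, 1215 and 908 CPM in WT and 1247, 985 and 1185 in T1 (0.06, adjusted p = 0.752). At E14.5 it was at 243 ± 32.7 and 199 ± 12.3, in sorted Foxd1 cells at 228 ± 35.6 and 271 ± 29.7, in whole Foxd1 kidneys at 288 ± 14.9 and 333 ± 41.9, and in whole Six2 kidneys at 279.5 ± 35.7 in WT, 271 ± 18.3 in T1 and 267 ± 16.7 in T3. Adamts4 rose in sorted Six2 cells at E18.5, from 20, 17.1 and 17.9 CPM to 32.3, 25.7 and 28.3 (0.66, SE 0.10, adjusted p = 0.000449), or 0.57 and under 1.5-fold without T1 replicate 1. Adamts20, known from pigment cell migration, rose there from 2.67, 2.74 and 2.74 CPM to 4.42, 4.70 and 4.56 (0.75, SE 0.15, adjusted p = 0.00256). Its stage difference of 0.83 (adjusted p = 0.0285) was lost when any of 10 of the 12 libraries was left out (adjusted p = 0.0584 to 0.0862).

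Adamts9, a versicanase, rose in sorted Foxd1 cells from 34.2, 33.9, 29.7 and 34.3 CPM to 50.3, 52.3, 53.8 and 47.6 (0.62, SE 0.10, adjusted p = 0.000264), or 0.58 and under 1.5-fold without WT replicate 3. In sorted Six2 cells, which had far more of it at E18.5, it was at 411, 369 and 361 CPM in WT and 349, 319 and 321 in T1 (−0.20, adjusted p = 0.0655), and the lineages differed by 0.80 (SE 0.11, adjusted p = 2.97e-05). Adamts8 was weakly expressed and fell in whole kidneys of both lines. It was at 1.31 and 1.41 CPM in WT, 0.261 and 0.297 in T1 (−2.28, SE 0.24, adjusted p = 0.000748) and 0.458 and 0.407 in T3 (−1.65, SE 0.23, adjusted p = 0.00245) in the Six2 set, and at 1.74, 1.93 and 1.66 in WT and 0.773, 1.02 and 1.17 in T1 in the Foxd1 set (−0.84, SE 0.21, adjusted p = 0.00875). Mutant and WT libraries were apart in all 3 comparisons. Adamts8 and Adamts9 share 10.6% and 12% of their exon length with other genes.

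**Figure D3:**
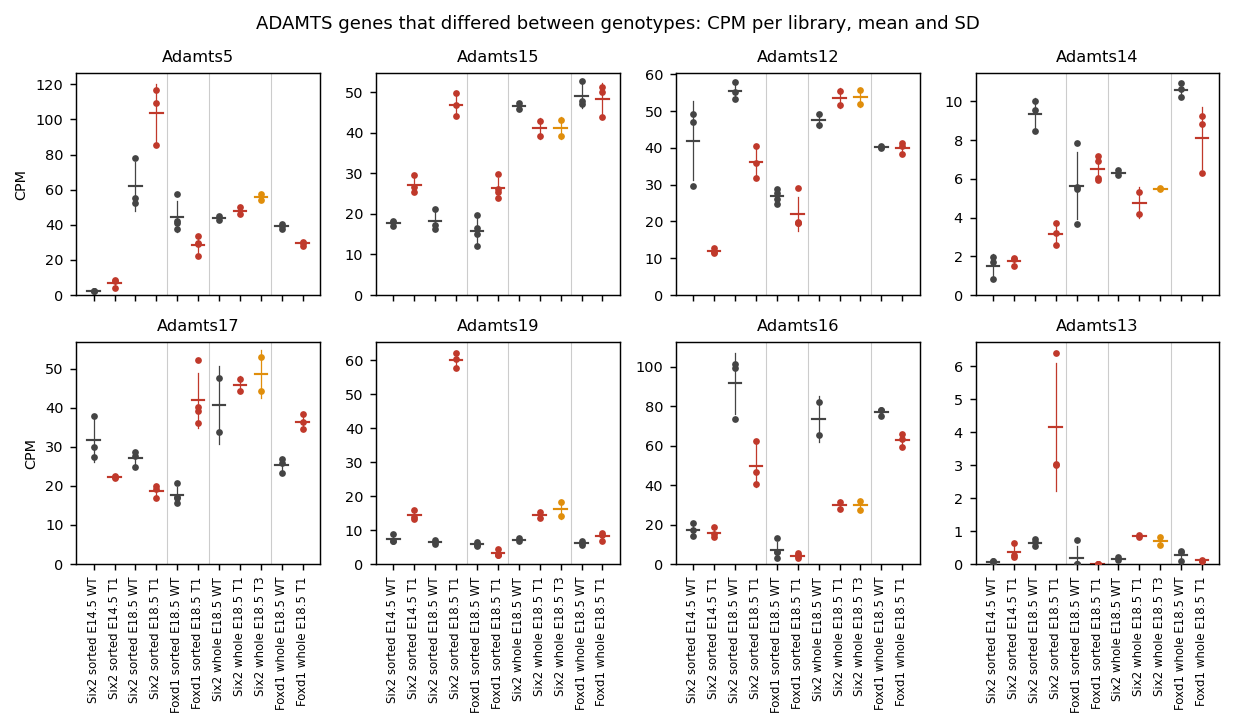
CPM per library (y axis, linear, from 0) of 8 ADAMTS genes in the 11 groups (x axis), with means and SD (bars, lower ends held at 0); grey is WT, red T1 and orange T3. Adamts19 rises to 57.8 to 62.2 CPM in the T1 libraries of sorted Six2 cells at E18.5, Adamts17 is above every WT library in T1 sorted Foxd1 cells, and Adamts16 is lower in all 4 mutant libraries of whole Six2 kidneys.

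The procollagen N-propeptidases Adamts2, Adamts3 and Adamts14 moved separately. Adamts14 fell in sorted Six2 cells at E18.5, from 10, 9.57 and 8.46 CPM to 3.70, 2.58 and 3.22 (−1.55, SE 0.15, adjusted p = 8.33e-06), with no overlap. At E14.5 it was at 1.5 ± 0.614 and 1.76 ± 0.209 CPM and in sorted Foxd1 cells at 5.64 ± 1.71 and 6.52 ± 0.609, and the T1 effect differed both between stages (−1.80, adjusted p = 0.00799) and between lineages (1.71, adjusted p = 0.000268). Adamts2 rose at E14.5 from 4.34, 3.28 and 2.12 CPM to 11.5, 5.36 and 10.7 (1.52, SE 0.33, adjusted p = 0.019), a call lost without WT replicate 2 or T1 replicate 1 or 3 (0.0719, 0.0703 and 0.0677). Adamts3, which also activates the lymphangiogenic growth factor VEGF-C, rose in T3 whole kidneys from 4.22 and 5.18 CPM to 7.46 and 6.82 (0.60, SE 0.13, adjusted p = 0.0159). With T1 it was at 6.49 and 6.45 CPM (0.46, adjusted p = 0.0515). The T3 change was 0.47 without WT replicate 1, and its adjusted p was 0.094 and 0.0511 without T3 replicates 1 and 2.

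Adamts19 showed the largest increase of any ADAMTS gene in sorted Six2 cells at E18.5. It is an orphan protease with a known role in heart valves. It went from 5.82, 6.53 and 7.16 CPM in WT to 60.3, 57.8 and 62.2 in T1 (3.21, SE 0.09, adjusted p = 1.9e-10). At E14.5 it was at 6.92, 6.8 and 8.84 CPM in WT and 13.3, 15.9 and 13.9 in T1 (0.95, SE 0.13, adjusted p = 0.0023), so the effect was larger at the later stage by 2.28 (SE 0.16, adjusted p = 1.51e-06). Whole Six2 kidneys had 6.75 and 7.69 CPM in WT, 15.4 and 13.6 in T1 (1.00, adjusted p = 0.0029) and 14.1 and 18.1 in T3 (1.16, adjusted p = 0.00129). Every mutant library of the Six2 line lay above its WT libraries. In sorted Foxd1 cells it fell, from 21, 19, 13 and 18 counts to 12, 8, 7 and 9 (−0.89, SE 0.27, adjusted p = 0.0431), and the lineages differed by −4.13 (SE 0.25, adjusted p = 3.28e-10). The fall in Foxd1 cells was lost when any of 7 of the 8 libraries was left out (adjusted p = 0.0598 to 0.134), with DESeq2 (0.19), with no low-count filter (0.0867) and with genes over 1 CPM only (0.0515).

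Adamts13, the von Willebrand factor protease, rose in whole Six2 kidneys from 27 and 18 counts to 131 and 105 in T1 (2.41, SE 0.34, adjusted p = 0.00326) and 88 and 66 in T3 (2.11, SE 0.35, adjusted p = 0.00543). Sorted Six2 cells at E18.5 went from 0.67, 0.535 and 0.753 CPM to 3.05, 6.40 and 3.01 (2.68, SE 0.31, adjusted p = 3.77e-05). The groups did not overlap. Adamts16, which is expressed in developing kidney and gonad, went the other way. It was at 65.4 and 82.1 CPM in WT, 28.1 and 31.6 in T1 (−1.31, SE 0.13, adjusted p = 0.00055) and 27.5 and 32.1 in T3 (−1.31, SE 0.13, adjusted p = 0.00047) whole kidneys, and at 99.7, 102 and 73.8 in WT and 62.4, 40.8 and 46.8 in T1 Six2 cells at E18.5 (−0.87, SE 0.14, adjusted p = 0.000689). Nephron epithelium markers fell beside it, 7 of 8 with T1 and 8 of 8 with T3 in whole Six2 kidneys (2403 to 2514 CPM in WT, 735 to 831 in T1, 674 to 739 in T3) and 8 of 8 in the sorted cells (2745 to 3237 against 258 to 362), with no marker at 0. Their part in the fall of Adamts16 was not tested.

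Adamts17, linked to short stature and fibrillin matrix, rose in sorted Foxd1 cells from 20.7, 16.8, 17.1 and 15.7 CPM to 40.2, 39.2, 36 and 52.1 (1.25, SE 0.14, adjusted p = 7.19e-06). The lowest T1 library was well above the highest WT library. Sorted Six2 cells at E18.5 had 24.9, 28.6 and 27.7 CPM in WT and 16.8, 20 and 19.3 in T1 (−0.53, adjusted p = 0.00152, under 1.5-fold), and the lineages differed by 1.76 (SE 0.18, adjusted p = 3.65e-07). In whole Foxd1 kidneys it was at 26.9, 26 and 23.4 CPM in WT and 34.4, 38.5 and 36.2 in T1 (0.52, adjusted p = 8.84e-05, under 1.5-fold).

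Adamts12, which can cut COMP, fell in the Six2 lineage. It was at 49.2, 47.1 and 29.5 CPM in WT and 11.6, 11.3 and 12.8 in T1 at E14.5 (−1.80, SE 0.18, adjusted p = 0.000553) and at 55.1, 53.4 and 57.9 against 31.9, 35.9 and 40.5 at E18.5 (−0.61, SE 0.09, adjusted p = 0.000231). T1 was below every WT library at both stages, and the effect differed between them by 1.2 (SE 0.21, adjusted p = 0.0032). The E18.5 change was under 1.5-fold without WT replicate 3 (−0.58) or T1 replicate 1 (−0.53) and with library size alone as scaling (−0.52). Adamts18 rose in whole Six2 kidneys, from 9.90 and 8.87 CPM to 14.1 and 14.8 in T1 (0.62, adjusted p = 0.00402) and a mean of 15 ± 0.798 (SD, n = 2) in T3 (0.68, adjusted p = 0.00231), and in Six2 cells at E18.5, from 5.58, 4.61 and 4.56 to 8.63, 7.36 and 6.62 (0.62, adjusted p = 0.00839). It is known from branching of the lung and lacrimal gland. These changes sat near the fold limit, at 0.57 without WT replicate 2 of the T1 comparison and at 0.51 to 0.57 without WT replicate 2 or 3 or T1 replicate 1 of the sorted cells. Its T1 effect differed between lineages by −1.67 (SE 0.35, adjusted p = 0.00214), with 10, 20, 12 and 16 counts in WT and 7, 5, 7 and 8 in T1 Foxd1 cells. These counts were too few for Adamts18 to be tested in Foxd1 cells alone.

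Adamts6, a relative of Adamts10 that acts on fibrillin matrix, rose in Six2 cells at E14.5 from 0.788, 1.15 and 0.994 CPM to 2.70, 1.38 and 3.18 (1.33, SE 0.31, adjusted p = 0.0268) and was at 11.9, 13.1 and 12.2 in WT and 12.4, 7.78 and 6.87 in T1 at E18.5 (−0.45, adjusted p = 0.108). The T1 effect differed between stages by −1.76 (SE 0.39, adjusted p = 0.0127). The E14.5 call was lost when any WT library or T1 replicate 1 or 3 was left out (adjusted p = 0.0583 to 0.0981). Adamts7, another protease of COMP, was called in no genotype comparison but its T1 effect differed between lineages (−0.63, SE 0.15, adjusted p = 0.00566), with 54.1 ± 2.13 CPM in WT and 40.8 ± 6.46 in T1 Foxd1 cells and 16.7 ± 2.07 and 19.2 ± 1.43 in Six2 cells at E18.5.

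Of the ADAMTS-like genes, 3 of the 4 tested rose in sorted Six2 cells at both stages: Adamtsl1, Adamtsl4 and Adamtsl5. Adamtsl3 was not called (−0.82 and −0.43), and Adamtsl2 was not tested there. Adamtsl1 (punctin) was at 2.07, 1.18 and 2.03 CPM in WT and 6.06, 4.12 and 7.64 in T1 at E14.5 (1.77, SE 0.28, adjusted p = 0.00485), and at 6.57, 6.57 and 4.87 against 14.3, 17.8 and 13.4 at E18.5 (1.34, SE 0.15, adjusted p = 2.41e-05). It rose in sorted Foxd1 cells too, from 46, 55.4, 49.2 and 47.8 CPM to 91.3, 84.2, 87.5 and 89.6 (0.83, SE 0.09, adjusted p = 2.33e-06). The smaller effect in Foxd1 cells, a difference of −0.53 (adjusted p = 0.0258), was lost when any of 3 libraries was left out (adjusted p = 0.0545 to 0.068). Adamtsl4, a fibrillin-binding protein of the eye's lens ligaments, went from 2.38, 1.29 and 2.45 CPM to 7.12, 5.87 and 6.13 at E14.5 (1.66, SE 0.24, adjusted p = 0.00315) and from 4.94, 4.06 and 4.12 to 7.35, 8.33 and 6.25 at E18.5 (0.75, SE 0.15, adjusted p = 0.0031). Adamtsl5, also a binder of fibrillin microfibrils, went from 21, 12 and 16 counts to between 0.532 and 1.34 CPM at E14.5 (3.09, SE 0.45, adjusted p = 0.00356) and from 14, 19 and 5 counts to 69, 146 and 88 at E18.5 (2.92, SE 0.47, adjusted p = 0.000587). In none of these did T1 and WT overlap. Stromal markers moved in the same cells, 4 of 8 up and 1 down at E14.5 (625 to 653 CPM in WT, 631 to 726 in T1) and 2 up and 2 down at E18.5 (718 to 757 and 691 to 744), as did pericyte and smooth muscle markers, 2 of 6 up at E14.5 (25.1 to 28.5 and 28.8 to 37.5) and 4 up and 1 down at E18.5 (178 to 218 and 206 to 241). None of these markers was at 0, and their part was not tested. For Adamtsl5 the lineages differed by −2.70 (SE 0.51, adjusted p = 0.000752), with 9.12 ± 2.65 CPM in WT and 10.6 ± 2.43 in T1 Foxd1 cells.

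Adamtsl2, which binds fibrillin and LTBP1, was the only member called upward in whole Foxd1 kidneys, from 1.09, 1.06 and 1.1 CPM to 4.07, 3.00 and 3.52 (1.70, SE 0.18, adjusted p = 9.37e-06). With no fold limit 11 of 40 members were up there and 10 down, where 6732 of 20145 tested genes passed, 3300 of them up. Sorted Foxd1 cells held 0, 1, 3 and 3 counts in WT and 16, 12, 10 and 9 in T1, a ratio of 7.11 (95% interval 3.19 to 18.6, counting error only), under the count filter and so untested.

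The 2 mutant alleles were compared directly in whole Six2 kidneys. None of the 42 tested members differed between T3 and T1 by edgeR (0.00418% of all tested genes did, 1 gene), nor by DESeq2 or the edgeR exact test. The median difference over the members was 0.09 (0.00 over all genes), and sex and allele cannot be told apart in it. Adamts8 had the largest of those named above, 0.63 (SE 0.25, adjusted p = 0.659).

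Whether the T1 effect depends on stage or lineage was tested as an interaction. Between E14.5 and E18.5 in the Six2 lineage, 6 of 44 tested members had a higher and 3 a lower effect at E18.5 (3.94% and 4.22% of all genes, 8.16% together): Adamts12, Adamts15, Adamts19, Adamts20, Mmp11 and Mmp15 higher, and Adamts6, Adamts14 and Mmp23 lower. The Adamts20 difference was lost with no low-count filter (adjusted p = 0.0651). Mmp11, stromelysin 3, was at 69.6 ± 1.92 and 68.1 ± 3.52 CPM at E14.5 and 27.4 ± 2.62 and 38.4 ± 1.75 at E18.5 in WT and T1, a stage difference of 0.52 (SE 0.10, adjusted p = 0.00623) that had an adjusted p of 0.0509 without E18.5 WT replicate 2. Of the 9 members up at E14.5, 6 (66.7%) were among the 14 up at E18.5 (42.9%), Adamts5, Adamts15, Adamts19, Adamtsl1, Adamtsl4 and Adamtsl5, and Adamts12 was down at both.

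Between lineages at E18.5, 6 of 37 tested members had a higher and 8 a lower T1 effect in Foxd1 than in Six2 cells (8.25% and 7.63% of all genes, 15.9% together). The higher ones were Adamts9, Adamts14, Adamts17, Mmp9, Mmp23 and Timp2, and the lower ones Adamts5, Adamts7, Adamts15, Adamts18, Adamts19, Adamtsl1, Adamtsl5 and Timp3. Mmp9 and Adamts18 had too few counts in sorted Foxd1 cells to be tested there alone. Adamts15 and Adamtsl1 rose in both lineages, 14.3% of the 14 up in Six2 and 40% of the 5 up in Foxd1 cells, and Adamts5 and Adamts19 rose in Six2 and fell in Foxd1 cells. No member called in sorted Foxd1 cells was called in whole Foxd1 kidneys at a fold over 1.5, though Timp3 (−0.47, adjusted p = 0.00145), Adamts5 (−0.42, adjusted p = 0.000129), Adamts9 (0.34, adjusted p = 0.000315), Adamts17 (0.52, adjusted p = 8.84e-05) and Adamtsl1 (0.30, adjusted p = 0.00208) moved there as in the sorted cells and Adamts19 (0.38, adjusted p = 0.0307) the opposite way. The sorted Foxd1 libraries all carried Ddx3y and the whole ones Xist, so sex and preparation cannot be told apart between these sets. In the Six2 line 5 of the 14 members up in sorted cells at E18.5 (35.7%) were among the 8 up in T1 whole Six2 kidneys (62.5%): Adamts13, Adamts18, Adamts19, Mmp13 and Mmp19.

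**Figure D4:**
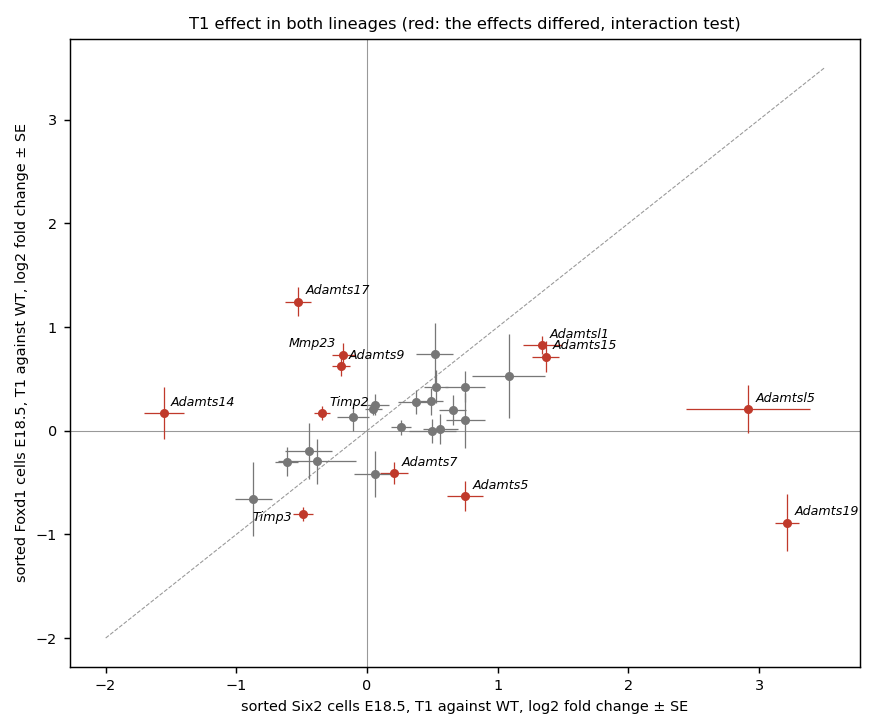
T1 effect (log2 fold change with SE) in sorted Six2 cells at E18.5 (x axis) and sorted Foxd1 cells (y axis) for the 31 members tested in both. The dashed line marks equal effects; red, labelled points are the 12 whose effects differed in the interaction test, with Adamts19 at 3.21 and −0.89 the farthest from the line.

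In WT Six2 cells the members called between the stages mostly rose, while the share called in either direction was near that of all genes. From E14.5 to E18.5, at adjusted p under 0.01 and a fold over 2, 18 of 44 tested members rose and 1 fell, where 24.8% of all tested genes rose and 20.6% fell (45.5% together), and the median log2 fold change of the members was 1.09 against 0.02 over all genes. Scaling by library size alone, which moved the median of all genes to −0.12, left 15 up and 3 down, and DESeq2 size factors moved that median to 0.15. Mmp10 and Mmp12, among the 18 that rose, passed the low-count filter only through E18.5 libraries. A rise was the only call open to these genes. Cells were dissociated with trypsin at E14.5 and collagenase at E18.5, so stage and enzyme cannot be told apart.

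Adamts1 rose from 208, 273 and 247 CPM at E14.5 to 1161, 1215 and 908 at E18.5 (2.17, SE 0.12, adjusted p = 7.16e-10), and Adamts9 from 63, 52.8 and 57.4 to 411, 369 and 361 (2.72, SE 0.08, adjusted p = 6.95e-13). Timp3 rose from 50.6, 30.6 and 42.1 CPM to 349, 380.3 and 335 (3.11, SE 0.15, adjusted p = 1.02e-10), and Adamts5 from 2.11, 2.40 and 2.23 to 52.6, 78 and 55.4 (4.79, SE 0.25, adjusted p = 2.88e-10). The stages did not overlap in any of these 4 genes, as for 72.7% of tested members and 76.2% of all genes. Also up were Adamts16 (2.40), Adamts14 (2.65), Adamts6 (3.66), Adamts13 (3.20), Adamtsl1 (1.77), Mmp19 (2.82) and Mmp23 (1.45), all at an adjusted p of at most 0.000278. Adamts3 (1.12) and Adamtsl4 (1.1) were close to the 2-fold limit, at 0.99 and 0.85 without E14.5 WT replicate 2 and at 0.98 and 0.96 by library size alone, and Adamts8 (1.35, adjusted p = 0.00564) missed the p threshold when any of 4 libraries was left out (0.0101 to 0.0278). Mmp11 was the member that fell, from 69.4, 67.8 and 71.7 CPM to 30.4, 26.1 and 25.7 (−1.34, SE 0.07, adjusted p = 4.32e-10).

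Of the clustered chromosome 9 genes whose promoters are shown above, Mmp10, Mmp12 and Mmp13 rose between the stages and Mmp1a had at most 3 counts at both. Mmp10, stromelysin 2, had 0, 0 and 4 counts at E14.5 and 81, 80 and 46 at E18.5, a ratio of 90.6 (95% interval 34.8 to 336, counting error only), with a fitted change of 6.32 that became 9.55 without E14.5 WT replicate 3. Mmp12 had 0 counts in each E14.5 library and 10, 13 and 9 at E18.5, at least 18.7-fold higher against a floor of 3 counts over the group. For Mmp10 and Mmp12 the filter left a rise as the only possible call. Mmp13 went from 0, 0.157 and 0.42 CPM to 1.40, 2.61 and 2.84 (3.56, SE 0.72, adjusted p = 0.000452), or 4.80 without E14.5 WT replicate 3. Mmp25, a leukocyte MMP outside the cluster, went from 2, 11 and 1 counts to between 1.40 and 2.97 CPM (5.90, SE 0.67, adjusted p = 1.75e-06), or 7.38 without E14.5 WT replicate 2. Pericyte and smooth muscle markers rose over the same interval, 6 of 6 (25.1 to 28.5 CPM at E14.5, 178 to 218 at E18.5), endothelial markers 5 of 6 (7.80 to 9.24 and 40.5 to 48.3) and nephron epithelium markers 7 of 8 (148 to 180 and 2745 to 3237). Macrophage markers were 1 of 8 up and 3 down (13.7 to 96.8 CPM at E14.5, 38.4 to 41.4 at E18.5). Of 4 tested neutrophil markers 0 were called, and all 4 had negative fitted changes (sums of 0.0928 to 18.3 and 0.166 to 0.771 CPM). No pericyte, endothelial or macrophage marker was at 0, and 1 or 2 of the 8 nephron epithelium markers were at 0 in each E14.5 library. In single libraries 0 to 3 of the 6 neutrophil markers were at 0. A sort for tdT+ cells of the Six2 lineage would be meant to leave out pericytes and endothelium. The part of all these cells in the rise of the members was not tested.

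**Figure D5:**
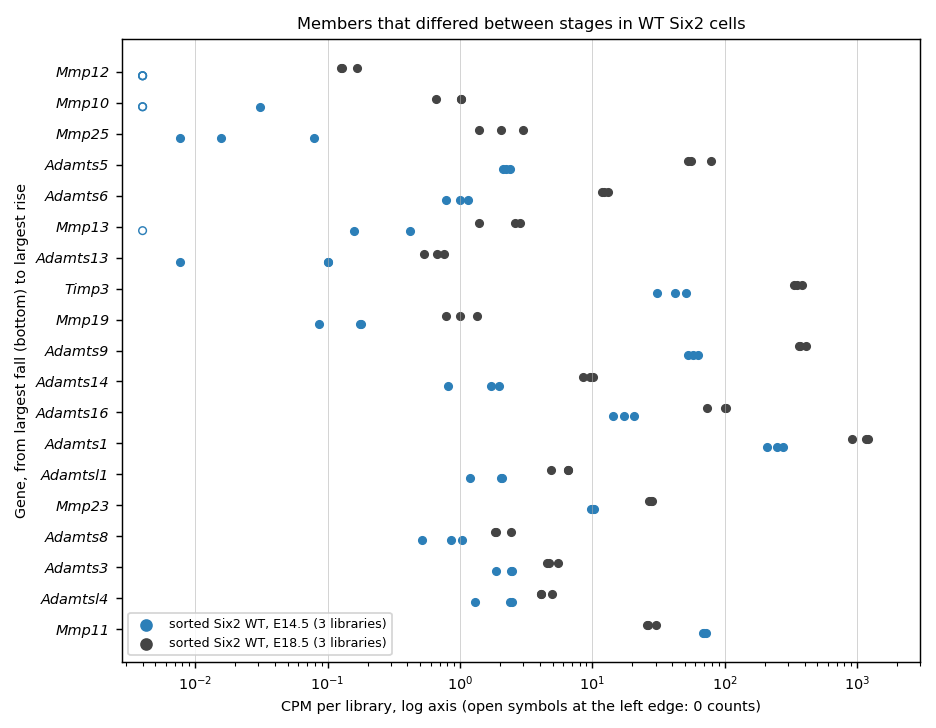
CPM per library (x axis, log scale) in WT sorted Six2 cells at E14.5 (blue) and E18.5 (grey), 3 libraries each, for the 19 members called between the stages (y axis, ordered by fitted change). Open symbols at the left edge are libraries with 0 counts; the 2 stages are apart in every row, and Mmp11 is the one member lower at E18.5.

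The partners of the proteases were read from 2 lists: 22 regulators and 21 matrix substrates. Of the regulators, 3 rose and 5 fell among 21 tested in Six2 cells at E18.5 (6.14% and 5.54% of all genes) and 4 and 2 of 19 at E14.5 (4.11% and 2.28%). Whole Six2 kidneys had 1 up and 3 down of 22 with T1 (2.88% and 4.88%) and 0 and 4 of 22 with T3 (4.34% and 5.28%). The counts were 1 and 1 of 17 in Foxd1 cells (3.63% and 2.18%) and 1 and 3 of 21 in whole Foxd1 kidneys (2.65% and 7.53%). Plau, the urokinase that makes plasmin and through it activates MMPs, fell in T1 whole Six2 kidneys (−1.56, SE 0.08, adjusted p = 3.91e-05), with T3 (−1.62, adjusted p = 2.82e-05), in Six2 cells at E18.5 (−0.67, adjusted p = 0.000603) and in whole Foxd1 kidneys (−1.2, adjusted p = 2.46e-08). Spock2, a testican that modulates membrane MMPs, fell in all 4 Six2-line comparisons (−1.0, −1.19, −0.99 and −1.51, adjusted p at most 0.000346) and rose in whole Foxd1 kidneys (0.63, adjusted p = 1.03e-05). It is itself expressed in nephron progenitors, whose markers moved the same way, 5 of 6 down in each of those 4 comparisons and 4 of 6 up in whole Foxd1 kidneys. Their sums were 143 to 167 CPM in WT, 86.0 to 88.4 in T1 and 72.1 to 88.2 in T3 whole Six2 kidneys, 1655 to 1946 in WT and 846 to 1045 in T1 cells at E14.5, 447 to 584 and 188 to 243 at E18.5, and 278 to 295 and 421 to 528 in whole Foxd1 kidneys. None of these markers was at 0, and their part was not tested. Pcsk5, a proprotein convertase, rose in all 3 sorted comparisons (0.77, 0.63 and 1.13, adjusted p at most 0.000553). Serpine2, an inhibitor of plasminogen activators and thrombin, fell in sorted Foxd1 cells (−1.03, adjusted p = 1.58e-08). In WT Six2 cells between the stages 10 of 21 tested regulators rose and 3 fell, where 24.8% of all genes rose and 20.6% fell, among them Plau (10.63, SE 0.36) and Thbs1 (4.19, SE 0.10) upward.

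Of the substrates, 8 were up and 2 down of 19 in sorted Six2 cells at E14.5 (4.11% and 2.28% of all genes) and 9 up and 1 down of 21 at E18.5 (6.14% and 5.54%). Stromal markers were mixed in the same cells, with 4 of 8 up and 1 down at E14.5 and 2 up and 2 down at E18.5. Pericyte and smooth muscle markers were 2 of 6 up and 0 down at E14.5 and 4 up and 1 down at E18.5. Their sums are given above, and their part was not tested. Fibrillar collagen and elastin genes were among the substrates that rose: Col1a1 (2.47, SE 0.33, adjusted p = 0.00238 at E14.5, and 1.41, SE 0.18, adjusted p = 7.94e-05 at E18.5), Col3a1 (2.08 and 0.94) and Eln (2.62 and 2.02, adjusted p = 7.8e-05 and 5.36e-08). Fn1, fibronectin, rose at both stages (0.64 and 1.01), in sorted Foxd1 cells (0.74, adjusted p = 1.32e-06) and in whole Foxd1 kidneys (0.68). Vcan, the versican cut by Adamts1, Adamts5, Adamts9 and Adamts15, fell in Six2 cells at E14.5 (−0.62, adjusted p = 0.0055) and rose in sorted Foxd1 cells (0.61, adjusted p = 4.34e-06) and whole Foxd1 kidneys (0.68). Vwf, the substrate of Adamts13, fell in whole Six2 kidneys with T1 (−0.84, adjusted p = 0.0143) and T3 (−0.73, adjusted p = 0.022), where Adamts13 rose, and in whole Foxd1 kidneys (−0.67). In the whole Six2 kidneys Vwf was the only one of 21 tested substrates called, with each allele. That is 4.76%, against 7.77% of all genes with T1 and 9.62% with T3. In Foxd1 tissue the counts were 2 up and 0 down of 17 in sorted cells (3.63% and 2.18% of all genes) and 3 up and 1 down of 19 in whole kidneys (2.65% and 7.53%). Between the stages in WT cells 13 of 21 tested substrates rose and 0 fell, where 24.8% and 20.6% of all genes did.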

How the data were processed

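Gene counts were deposited by the authors for 32 libraries as 4 tables of raw counts. Per the study's methods, reads were aligned to mm10 with HISAT2 and counted with HTSeq without strand; the annotation release is not given in the sources used here. Whole kidneys were prepared with a stranded kit and sorted cells with SMART-seq v4. From the deposited counts, 55450 of 55806 identifiers were named with GENCODE vM21 (GRCm38), and 356 stayed unnamed. CPM is the count divided by the TMM-scaled library size, on the scale of the cpm function of edgeR; CPM per kb divides this by the union of exons. Because reads were counted without strand, genes with shared exons can share reads; 8 members share over 10% of their exon length with another gene.

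Each comparison was fitted over all genes with edgeR 4.0.16 (quasi-likelihood test, filterByExpr with a minimum count of 10 and a minimum total of 15, TMM) in R 4.3.3, with Benjamini-Hochberg adjustment over all genes tested. A gene was called at adjusted p under 0.05 with a fold over 1.5 between genotypes, under 0.01 with a fold over 2 between stages, and under 0.05 for interactions. The procedure was tested on simulated data. Alternatives were DESeq2 1.42.0, the edgeR exact test used by the study, other scalings, filters, fold limits and sets of libraries, a replicate block, and leaving out each library. Intervals on ratios of counts cover 95% of counting error only. Named were Mllt1, the TIMPs, Mmp2, Mmp9, Mmp14, Adamts1 and every other member called in any comparison. The members and lists were chosen with earlier results of these data known. Groups came from the sample labels, and 0 columns were left without a sample. Protein sequences were not used here, and single values of some genes in the lists are not reported here.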

Additional observations from a re-analysis of the deposited data

Results flagged for a closer look

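In sorted Foxd1 cells, the only groups of 4 libraries, 3 of 62 gene and group pairs held 1 library apart from the other 3 by Dixon's test at the 95% level (which chance passes in about 5% of groups). Adamts12 was at 29.1 CPM in T1 replicate 1, Adamts9 at 29.7 CPM in WT replicate 3 and Mmp2 at 384 CPM in T1 replicate 3.

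The T1 effect in sorted Six2 cells differed between stages, as an interaction term on the log2 scale (E18.5 minus E14.5), for Adamts12 (1.2), Adamts15 (0.75), Adamts19 (2.28), Adamts20 (0.83), Mmp11 (0.52) and Mmp15 (0.83), and with the opposite sign for Adamts14 (−1.80), Adamts6 (−1.76) and Mmp23 (−0.62).

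The T1 effect at E18.5 differed between sorted lineages (Foxd1 minus Six2) for Adamts14 (1.71), Adamts17 (1.76), Adamts9 (0.80), Mmp23 (0.90), Mmp9 (2.12) and Timp2 (0.50), and with the opposite sign for Adamts15 (−0.67), Adamts18 (−1.67), Adamts19 (−4.13), Adamts5 (−1.40), Adamts7 (−0.63), Adamtsl1 (−0.53), Adamtsl5 (−2.70) and Timp3 (−0.33). Mmp9 and Adamts18 had too few counts in sorted Foxd1 cells to be tested there alone. Lineage and sequencing run cannot be told apart here. Sex was also tied to lineage, as all sorted Foxd1 libraries carried Ddx3y and most sorted Six2 libraries at E18.5 carried Xist.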

How the results depend on the processing

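Of 143 results followed for named genes, 122 kept their direction and call in each alternative that used all libraries, and 101 also with each library left out. Fold limits were applied only to the counts of members below, not to these 143 results. The 143 include uncalled results of the TIMPs, Mmp2, Mmp9, Mmp14 and Adamts1, which were kept by staying uncalled with the same sign. With a fold over 2, members called numbered 6 with T1 and 6 with T3 in whole Six2 kidneys (1120 and 1344 over all genes). They numbered 10 in sorted Six2 cells at E18.5 (1682), 1 in sorted Foxd1 cells (347) and 1 in whole Foxd1 kidneys (1084). With no fold limit they numbered 19 with T3 (4189), 16 in sorted Six2 cells at E14.5 (2884) and 21 in whole Foxd1 kidneys (6732). With no low-count filter, 14 members differed between stages in the T1 effect (2355 over all genes). Leaving out single libraries gave 6 to 10 members in sorted Six2 cells at E14.5 (6 without T1 replicate 1) and 2 to 4 in whole Foxd1 kidneys (2 without WT replicate 2). Over all genes, T3 against T1 gave 1 call, against 14 with their libraries alone, 75 with DESeq2, 88 with the exact test and 300 with no filter. The causes were not tested.

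Differences that turned sign were all uncalled. Adamts1 in whole Six2 kidneys became 0.028 with T1 and 0.0085 with T3 by library size alone, and ranged from −0.17 to 0.11 and from −0.19 to 0.092 with single libraries left out. The same ranges were −0.024 to 0.20 for Timp1 with T1, −0.17 to 0.20 and −0.31 to 0.30 for Timp4 with T1 and T3, −0.34 to 0.015 for Timp3 in sorted Six2 cells at E14.5, −0.057 to 0.16 for Adamts1 at E18.5, and −0.20 to 0.065 for Mmp9 and −0.41 to 0.050 for Timp4 in whole Foxd1 kidneys. Timp4 with T1 was −0.0019 by the exact test.

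Same-numbered libraries correlated in their residuals at −0.304 to 0.497, and the numbers were not taken as pairs. In sorted Six2 cells at E18.5 the values were 0.497, 0.0165 and 0.317 for replicates 1, 2 and 3. There replicate 1 of both genotypes carried Ddx3y and the others Xist, so same-numbered libraries shared sex. With the replicate block, members called numbered 9, 10, 0, 9, 18, 7, 4 and 19 in the order T1, T3 and T3 against T1 in whole Six2 kidneys, sorted Six2 cells at E14.5 and E18.5, sorted and whole Foxd1, and between WT stages, with 9 and 14 for the stage and lineage interactions. Timp4 with T1 and T3 was −0.0086 and −0.0026 under the block. Adjusted p under the block was 0.0732 and 0.0766 for Mmp24 with T1 and T3, 0.0613 for Adamts6 and 0.0536 for Timp4 at E14.5, 0.0577 for Adamts19 in sorted Foxd1 cells, 0.0766 for Mmp13 in whole Foxd1 kidneys and 0.0591 for Adamts20 between stages. A crossed pairing of T1 and T3, chosen after seeing the data, gave 0 members both ways and 86 genes in all, against 63 uncrossed.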
